A study of Mus musculus with 8 samples.

Results

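Tetraspanins are a family of small membrane proteins that cross the membrane several times and gather integrins, immunoglobulin-superfamily proteins, growth factor receptors and proteases into patches called tetraspanin-enriched microdomains. One group, the TspanC8 proteins, escorts the protease Adam10 to the cell surface, where it cleaves substrates that include Notch receptors and their ligands. Several members (Cd9, Cd63, Cd81) are carried on extracellular vesicles, Cd151 binds laminin-binding integrins in epithelia, and Tspan8 has been used as a surface marker of a subset of mammary stem cells. Dll1, by which the cells were sorted, is itself a membrane-bound Notch ligand.

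The members were chosen by gene symbol, with no measured value in the rule: every protein-coding gene named Tspan followed by a number, together with Cd9, Cd37, Cd53, Cd63, Cd81, Cd82, Cd151, Upk1a, Upk1b, Rom1 and Prph2. This gave 31 genes of the 53697 in the count table. They comprised 6 TspanC8 genes, 7 genes with CD names, 4 uroplakin and photoreceptor genes, and 14 other Tspan genes. After the filter on low counts 28 of the 31 could be tested. The 3 others were Prph2, Upk1b and Tspan10, which had more than 3 counts in 0, 2 and 1 of the 8 libraries respectively.

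RNA was sequenced from mammary tumor cells of 4 mice that all carried MMTV-PyMT, in which the mouse mammary tumor virus promoter drives the polyoma middle T oncogene in mammary epithelium. In 2 mice (PyMT-Dll1GFP, here GFP mouse 1 and GFP mouse 2) a GFP-IRES-Cre-ERT2 cassette was knocked into Dll1, and in the other 2 (PyMT-Dll1mCh, here mCh mouse 1 and mCh mouse 2) mCherry was expressed from a BAC transgene. Cells bearing CD45, CD31 or ter119 were sorted out, and each mouse gave 1 library of reporter-positive (Dll1+) and 1 of reporter-negative (Dll1-) cells, so every Dll1+ library had a Dll1- control from the same animal. All mice were on a C57BL/6 background, the labels name no treatment, and the ages were not given in the sources used here. With 2 mice for each reporter, the reporter cannot be told apart from the individual tumors.

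Total counts ran from 27301396 to 123907626 per library, and levels are given as CPM (counts per 1000000 counts of the library in the tested genes, after TMM normalization). Dll1 itself, the basis of the sort, was at 7.61, 13.7, 34.7 and 50.3 CPM in the Dll1- libraries of GFP mice 1 and 2 and mCh mice 1 and 2, and at 87.5, 138, 203 and 250 CPM in their Dll1+ libraries. The lowest Dll1+ library thus lay above the highest Dll1- library, with log2 fold changes of 3.42 in the GFP and 2.43 in the mCh mice whose difference missed the threshold (edgeR adjusted p = 0.0761). Luminal epithelial markers (10 genes such as Epcam and Krt8) summed to between 4773 and 8274 CPM. Markers of cells that the gate should remove or that are not epithelial were also present and were uneven. Fibroblast markers (8 genes such as Col1a1) summed to between 995 and 1232 CPM in the 4 GFP libraries, to 7613 and 21760 CPM in the mCh Dll1- libraries and to 3039 and 3281 CPM in the mCh Dll1+ libraries. Leukocyte markers (12 genes) stood at 83.6 to 114 CPM in the GFP libraries, 511 and 543 CPM in the mCh Dll1- libraries and 230 and 241 CPM in the mCh Dll1+ libraries. These values are set beside the tetraspanins that move with them.

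The tetraspanins together took 0.196% to 0.246% of the counts of a library. Per kilobase of exon, Cd81 was the most abundant member, at a mean of 194 CPM per kb over the 8 libraries (139 to 242), and Cd9 followed at 166 CPM per kb (147 to 184). These ranges overlapped. Both are broadly expressed organizers of the microdomains and bind the same immunoglobulin-superfamily partners. After them came Tspan31 (55.9 CPM per kb), Cd151 (54.1) and Tspan14 (53.2), whose ranges also overlapped. Tspan31 is known for its amplification with Cdk4 in human sarcomas, and it shares 641 bases with Cdk4 on the opposite strand, so its level is uncertain if the counting ignored strand. Cd63, Cd82, Tspan8 and Tspan3 averaged between 35.8 and 45.0 CPM per kb. The length used is that of all annotated exons of a gene merged, and the order depends on it. Not divided by length, Cd63 and Tspan3 averaged 166 and 153 CPM, against 148, 141 and 123 CPM for Cd151, Tspan14 and Tspan31. At the low end were Cd37, Upk1a and Tspan32, at 0.554, 0.354 and 0.0624 CPM per kb, and the 3 untested genes at 0.0239 CPM per kb or less.

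**Figure D1:**
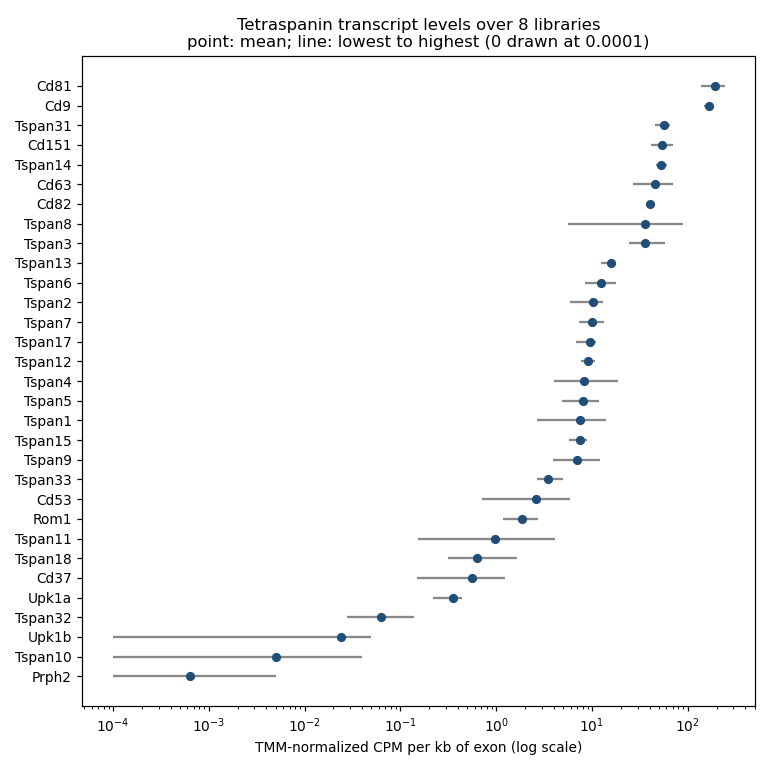
Level of each of the 31 tetraspanins on a logarithmic axis, in TMM-normalized CPM per kb of exon, with a point for the mean over 8 libraries and a line from the lowest to the highest library. Cd81 (194) and Cd9 (166) stand at the top, and the line of Tspan8 is among the longest of the abundant genes.

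The library-to-library range differed widely between members. Cd82, the metastasis suppressor also called KAI1, lay between 115 and 128 CPM in all 8 libraries, a 1.11-fold range. Cd9 had a 1.25-fold range. The highest library exceeded the lowest by 15.9-fold for Tspan8 and by 26.8-fold for Tspan11.

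Dll1+ cells were compared with Dll1- cells of the same mouse in edgeR's quasi-likelihood test, blocking on the animal. Of the 28 members tested, 2 were higher in Dll1+ cells (Tspan8 and Cd81) and 3 were lower (Tspan1, Tspan9 and Tspan4) at an adjusted p under 0.05. Over all 18322 genes tested, 6.98% were higher and 7.04% lower. The median log2 fold change of the members was 0.01, and that of all genes was -0.00. In bulk RNA of this kind, a smaller share of cells that express a gene and less RNA per cell cannot be told apart.

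Tspan8 had the largest combined log2 fold change of the 28 tested members. It stood at 33.1 and 23.5 CPM in the Dll1- libraries of GFP mice 1 and 2 and at 9.51 and 17.8 CPM in those of mCh mice 1 and 2, against 151, 143, 42.3 and 68.6 CPM in the Dll1+ libraries of the same mice. Every Dll1+ library lay above every Dll1- library. The combined log2 fold change was 2.23 ± 0.11 (SE, n = 4 mice), a 4.68-fold difference, with an edgeR adjusted p of 0.00534. Within single mice the log2 difference was 2.19, 2.60, 2.15 and 1.94. Tspan8 (chromosome 10, 115816832 to 115849893, plus strand, GRCm38) lies within the antisense gene 4930422I22Rik along its whole length of 33062 bases, but that gene had at most 2 counts in any library.

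Tspan1, a tetraspanin of epithelia and their tumors, went the other way. Its Dll1- libraries held 22.9 and 23.7 CPM in GFP mice 1 and 2 and 24.1 and 32.6 CPM in mCh mice 1 and 2, and its Dll1+ libraries 6.24, 8.37, 9.98 and 13.5 CPM in the same order. Again the groups did not overlap. The combined log2 fold change was -1.47 ± 0.12 (SE, n = 4 mice; edgeR adjusted p = 0.00534), which made Tspan1 2.77-fold lower in Dll1+ cells. No gene on either strand overlaps Tspan1 in the annotation.

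Cd81, the most abundant member, held 469 and 442 CPM in the Dll1- libraries of GFP mice 1 and 2 and 401 and 505 CPM in those of mCh mice 1 and 2. The Dll1+ libraries held 698, 690, 588 and 673 CPM. The change was 1.46-fold over the 4 mice (log2 fold change 0.55 ± 0.07, SE, n = 4; edgeR adjusted p = 0.0109), and the groups did not overlap. Its adjusted p was 0.0561 without GFP mouse 1 and 0.0625 without mCh mouse 1. Tspan8, Cd81 and Tspan1 were the only tested members whose 4 Dll1+ and 4 Dll1- libraries did not overlap, 2 upwards and 1 downwards of 28. Among all tested genes 2.74% were separated upwards and 3.33% downwards. Cd81 shares 948 bases with R74862 on the opposite strand, a transcript with 85 to 474 counts per library. Its nearest neighbor in the family, Tspan32, lies 33094 bases away and had a combined log2 fold change of -0.92 ± 0.36 (SE), which was not called.

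For these 3 genes the 250 bases before the RefSeq start are shown (GRCm38.p6, 5′ to 3′ on the strand of the gene), since they are the members whose Dll1+ and Dll1- libraries separated fully. Capitals mark TGGGAA, the core of the site bound by Rbpj, the DNA-binding factor of the Notch pathway. The windows are chr10:115817034-115817283 (plus strand) for Tspan8, chr4:116167599-116167848 (minus strand) for Tspan1 and chr7:143052500-143052749 (plus strand) for Cd81. Apart from a few bases at their 3′ ends, the GENCODE annotation places no exon in them.
Tspan8: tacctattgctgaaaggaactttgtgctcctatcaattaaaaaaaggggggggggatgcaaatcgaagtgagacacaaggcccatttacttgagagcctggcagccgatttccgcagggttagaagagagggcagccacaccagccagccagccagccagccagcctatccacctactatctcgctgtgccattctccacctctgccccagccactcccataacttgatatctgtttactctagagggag
Tspan1: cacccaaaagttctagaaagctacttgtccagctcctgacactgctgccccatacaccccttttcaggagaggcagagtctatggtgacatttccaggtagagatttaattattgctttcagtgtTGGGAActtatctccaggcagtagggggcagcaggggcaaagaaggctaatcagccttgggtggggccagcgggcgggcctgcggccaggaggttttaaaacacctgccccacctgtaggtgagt
Cd81: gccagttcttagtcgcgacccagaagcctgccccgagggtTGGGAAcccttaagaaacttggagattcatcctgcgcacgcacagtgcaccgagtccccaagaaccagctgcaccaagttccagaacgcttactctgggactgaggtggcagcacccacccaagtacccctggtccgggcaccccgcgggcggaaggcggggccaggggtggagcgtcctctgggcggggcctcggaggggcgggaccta
The Tspan1 window held 1 match, which begins 125 bases before the start, and the Cd81 window held 1, which begins 210 bases before it. The Tspan8 window held 0, and lies in an intron of a longer annotated Tspan8 transcript. RefSeq promoters were found for 29 of the 31 members (39 promoters, as some genes have several starts). On either strand, 12 of the 39 held TGGGAA (30.8%), against 21.6% of all 32851 promoters of that length. The E-box CANNTG was in 23 of the 39 (59.0%, against 66.2% of all promoters) and the AP-1 site TGANTCA in 1 of the 39 (2.56%, against 6.75%). A match is a run of letters and was not tested as a binding site.

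Tspan9 and Tspan4 passed the combined test by a small margin. Tspan9, which is known from platelets, held 32.0 and 25.0 CPM in the Dll1- libraries of GFP mice 1 and 2 and 49.9 and 59.7 CPM in those of mCh mice 1 and 2, against 19.3, 20.1, 41.6 and 31.1 CPM in the Dll1+ libraries. It was lower in Dll1+ cells of every mouse, although the groups overlapped, and within each gate both mCh mice were higher than both GFP mice. Its combined log2 fold change was -0.56 ± 0.13 (SE, n = 4; edgeR adjusted p = 0.0435). Without GFP mouse 1, GFP mouse 2 or mCh mouse 1 its adjusted p was 0.144, 0.0760 and 0.0850.

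Tspan4, a component of migrasomes (vesicles left behind by migrating cells), held 12.5 and 10.8 CPM in the Dll1- libraries of GFP mice 1 and 2 and 25.7 and 40.7 CPM in those of mCh mice 1 and 2. The Dll1+ libraries held 9.90, 8.72, 17.2 and 19.3 CPM, lower than their partners in 4 of 4 mice. The combined log2 fold change was -0.59 ± 0.14 (SE, n = 4; edgeR adjusted p = 0.0480). It missed the threshold without any one of the 4 mice (adjusted p 0.0587 to 0.183) and with RLE size factors (0.0543). Tspan4 shares 292 bases with Chid1 on the opposite strand, so the limit given for Tspan31 holds for it too.

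**Figure D2:**
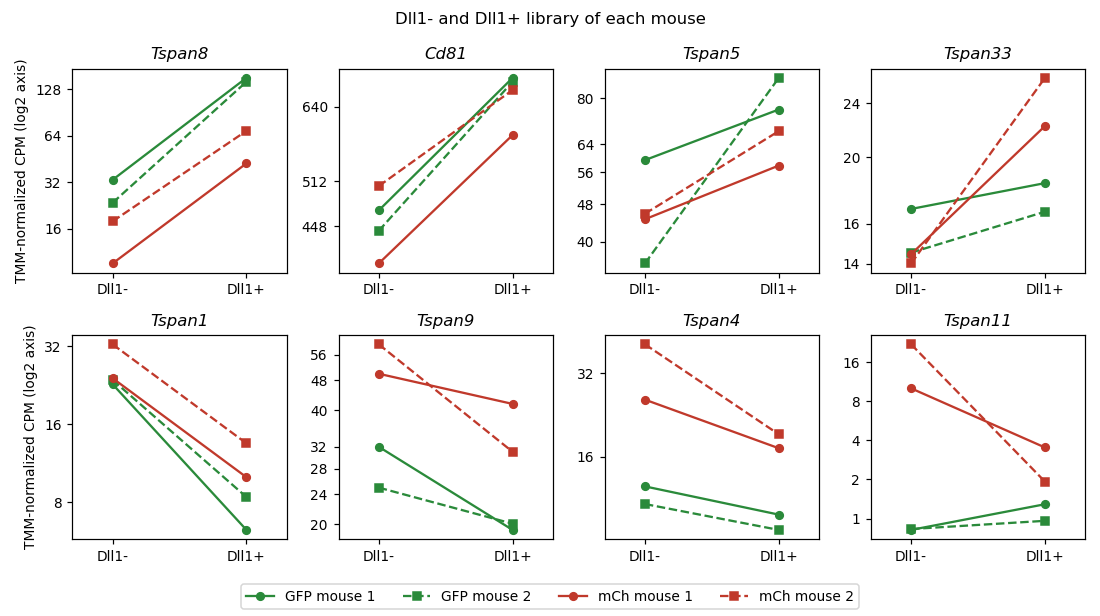
TMM-normalized CPM on log2 axes, each panel with its own range, in the Dll1- and Dll1+ library of each mouse for 8 tetraspanins. Lines join the libraries of a mouse, green for GFP and red for mCh, with circles and solid lines for mouse 1 and squares and dashed lines for mouse 2 of each reporter. All lines go up for Tspan8, Cd81, Tspan5 and Tspan33, all go down for Tspan1, Tspan9 and Tspan4, and those of Tspan11 go down in the mCh mice, from 10.05 and 21.9 CPM.

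Among the TspanC8 genes, which regulate Adam10, 5 of 6 were tested and 0 passed the combined edgeR test in either direction, although all 5 had a log2 fold change above 0. At an unadjusted p under 0.05 edgeR counted 2 of the 5, Tspan5 and Tspan33, and DESeq2 called the same pair. Tspan5 held 59.3 and 36.0 CPM in the Dll1- libraries of GFP mice 1 and 2 and 44.6 and 45.8 CPM in those of mCh mice 1 and 2, against 75.7, 88.2, 57.8 and 68.2 CPM in the Dll1+ libraries. It was above its partner in 4 of 4 mice, with a log2 difference between 0.35 and 1.29. Its combined log2 fold change of 0.64 ± 0.17 (SE) missed the threshold (edgeR adjusted p = 0.0633).

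Tspan33 held 16.8 and 14.5 CPM in the Dll1- libraries of GFP mice 1 and 2 and 14.4 and 14.0 CPM in those of mCh mice 1 and 2. The Dll1+ libraries held 18.3, 16.7, 22.2 and 26.1 CPM. Dll1+ cells were higher in 4 of 4 mice, with log2 differences of 0.12 and 0.20 in the GFP mice, against 0.62 and 0.90 in the mCh mice. Tspan14, the most abundant TspanC8 gene, held 152 and 150.5 CPM in the Dll1- libraries of GFP mice 1 and 2 and 124 and 135 CPM in those of mCh mice 1 and 2, against 142, 163, 124 and 137 CPM in the Dll1+ libraries. The groups overlapped, with a combined log2 fold change of 0.01 ± 0.06 (SE). Tspan15 and Tspan17 had combined log2 fold changes of 0.00 ± 0.05 and 0.18 ± 0.10 (SE), and Tspan10 was above 3 counts in 1 library alone. Adam10 itself was at 117 to 182 CPM in the Dll1- and 114 to 135 CPM in the Dll1+ libraries. Its log2 fold change was -0.22 ± 0.10 (SE) over the 4 mice (edgeR adjusted p = 0.207) and -0.44 ± 0.07 in the GFP mice alone (adjusted p = 0.0187), against 0.01 ± 0.07 in the mCh mice. Tested against each other, these last values missed the threshold (adjusted p = 0.165).

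Of the 7 CD-named genes, none but Cd81 passed the combined edgeR test, and 1 of the 7 had an unadjusted p under 0.05 (DESeq2 also called 1, Cd81). Cd9 held 335 and 309 CPM in the Dll1- libraries of GFP mice 1 and 2 and 377 and 369 CPM in those of mCh mice 1 and 2, against 311, 301, 357 and 347 CPM in the Dll1+ libraries. It was lower in Dll1+ cells of 4 of 4 mice, but by no more than 0.11 on the log2 scale, and its combined value of -0.08 ± 0.06 (SE) was not called (edgeR adjusted p = 0.395). Cd81 and Cd9, which share their partners, had combined log2 fold changes of 0.55 and -0.08. Cd151, the partner of laminin-binding integrins, held 138 and 124 CPM in the GFP and 159 and 159 CPM in the mCh Dll1- libraries, against 144, 113, 191 and 159 CPM in the Dll1+ libraries, with a combined value of 0.05 ± 0.08 (SE). Cd82 had -0.03 ± 0.06. Cd63, a marker of late endosomes and exosomes, had 0.19 ± 0.09 over the 4 mice (adjusted p = 0.179).

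None of the remaining Tspan genes passed the combined test by edgeR or DESeq2, and Tspan32 alone of them had an unadjusted p under 0.05 by edgeR. Tspan3, Tspan6, Tspan7, Tspan12, Tspan13 and Tspan31 had combined log2 fold changes between -0.18 (Tspan13) and 0.10 (Tspan7). Upk1a and Rom1, genes of the urothelium and of photoreceptors, had 0.02 ± 0.25 and 0.01 ± 0.16 (SE) at mean levels of 0.502 and 2.83 CPM. Across the family, 4 members were higher and 4 lower in Dll1+ cells of all 4 mice, 28.6% of the 28 tested. Among all tested genes 41.3% had 1 direction in all 4 mice.

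The Dll1 effect was then taken separately for each reporter, from 1 fit of all 8 libraries. In the GFP mice 2 members were higher (Tspan8 and Cd81) and 1 lower (Tspan1), where 4.29% of all genes were higher and 4.84% lower. In the mCh mice 4 were higher (Tspan8, Tspan33, Cd81 and Tspan2) and 3 lower (Tspan1, Tspan4 and Cd37), where 5.51% of all genes were higher and 6.25% lower. Fewer members passed in the mCh mice without mCh mouse 2 or either GFP mouse, and in the GFP mice without either GFP mouse. In each of these fits fewer of all genes passed too, so the drop is not particular to the family. With the mCh mice fitted alone, 0 of the 28 passed the edgeR test, and 11 had an unadjusted p under 0.05. That fit called 0 of all genes tested, so its count is not particular to the family.

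Tspan8, Cd81 and Tspan1 were called with both reporters. The log2 fold change of Tspan8 was 2.40 ± 0.12 in the GFP mice and 2.05 ± 0.12 in the mCh mice (SE, n = 2 mice each; edgeR adjusted p = 0.00270 and 0.00701). Tspan1 had -1.68 ± 0.13 and -1.27 ± 0.12 (adjusted p = 0.00292 and 0.00769), and Cd81 had 0.61 ± 0.10 and 0.48 ± 0.10 (adjusted p = 0.0180 and 0.0319). For each of the 3 the test of GFP against mCh effects missed the threshold (adjusted p 0.401 to 0.771).

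Tspan33 had a log2 fold change of 0.76 ± 0.12 in the mCh mice (edgeR adjusted p = 0.0162) and 0.16 ± 0.12 in the GFP mice (0.441). Tspan4 had -0.83 ± 0.14 in the mCh mice (adjusted p = 0.0205) and -0.32 ± 0.15 in the GFP mice (0.229). Tspan2, best known from oligodendrocytes, held 62.0 and 52.5 CPM in the Dll1- libraries of GFP mice 1 and 2 and 43.9 and 27.9 CPM in those of mCh mice 1 and 2, against 60.3, 57.4, 54.7 and 36.3 CPM in the Dll1+ libraries. It was called in the mCh mice at 0.35 ± 0.08 (adjusted p = 0.0485) and had 0.05 ± 0.08 in the GFP mice. The call of Tspan2 was lost with RLE size factors (edgeR adjusted p = 0.0511) and with DESeq2 (0.0640), which also missed Cd37 (0.0520). Without either GFP mouse, Cd81, Tspan2, Tspan4 and Cd37 were not called in the mCh mice. Neither Cd81 nor Tspan2 kept its call in the mCh mice when either of these mice was left out (adjusted p 0.0785 to 0.191), and without mCh mouse 2 the adjusted p was 0.0713 for Tspan33 and 0.0773 for Tspan4.

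**Figure D3:**
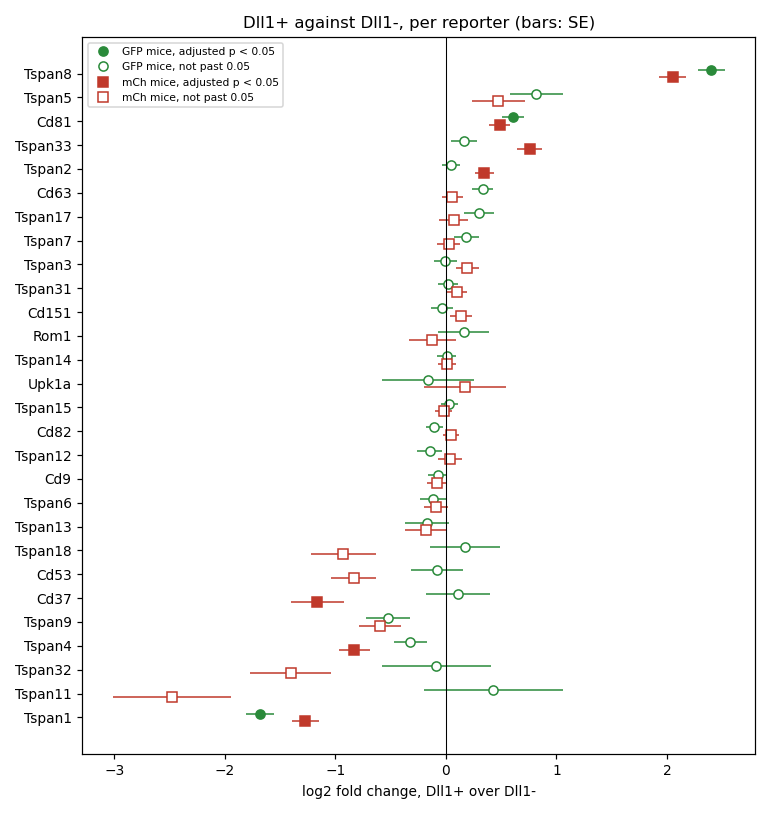
Log2 fold change of Dll1+ over Dll1- cells for the 28 tested tetraspanins, in GFP mice (green circles) and mCh mice (red squares), with bars for the SE. Filled symbols passed an edgeR adjusted p of 0.05. Most members lie near 0 with both reporters, Tspan8 lies at 2.40 and 2.05, and Tspan11, Tspan32, Tspan18, Cd53 and Cd37 lie below 0 in the mCh mice and near 0 or above in the GFP mice.

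When the 2 reporter effects were tested against each other, 0 members were higher and 0 lower by edgeR, with 7 at an unadjusted p under 0.05, and DESeq2 called 1 (Tspan11). Among all genes 0.00546% had a larger and 0.0655% a smaller effect in the mCh mice. For 5 members of low level, named after their values were seen, the effects differed by between -2.91 and -0.75 on the log2 scale. Tspan11 held 0.819 and 0.832 CPM in the Dll1- and 1.29 and 0.962 CPM in the Dll1+ libraries of the GFP mice, but 10.05 and 21.9 CPM in the Dll1- and 3.53 and 1.92 CPM in the Dll1+ libraries of the mCh mice. The difference in effect was -2.91 ± 0.82 (SE; edgeR adjusted p = 0.272).

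Cd37, a leukocyte tetraspanin, held 1.06 and 0.520 CPM in the Dll1- and 1.01 and 0.649 CPM in the Dll1+ libraries of the GFP mice, against 4.15 and 4.39 CPM in the Dll1- and 1.74 and 2.09 CPM in the Dll1+ libraries of the mCh mice. Its effect in the mCh mice was -1.16 ± 0.24 (SE; edgeR adjusted p = 0.0322). It lost the call without either mCh mouse (adjusted p 0.187 and 0.112). Cd53, which is likewise found mainly on leukocytes, held 3.0 and 1.25 CPM in the GFP and 7.90 and 10.2 CPM in the mCh Dll1- libraries, against 2.58, 1.32, 5.17 and 4.88 CPM in the Dll1+ libraries. The mCh libraries were all above the GFP libraries, and the share of all genes so separated was not counted. Cd53 had -0.83 ± 0.21 in the mCh mice and missed the threshold (adjusted p = 0.0501). Tspan32, a gene of blood cells, had -1.41 ± 0.37 (adjusted p = 0.0585) and Tspan18, known from endothelium, -0.93 ± 0.30 (adjusted p = 0.0970).

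The marker genes of other cell types moved in the same libraries. In the mCh mice 10 of the 11 leukocyte markers tested were lower in Dll1+ cells, with 0 higher, as were 4 of 8 fibroblast, 2 of 8 endothelial and 5 of 7 pericyte markers, whereas in the GFP mice edgeR called 0 of any of these lists (1 leukocyte and 3 pericyte markers had an unadjusted p under 0.05). The endothelial sum was 50.4 to 52.0 CPM in the GFP Dll1- and 49.8 to 55.0 CPM in the GFP Dll1+ libraries, 163 and 373 CPM in the mCh Dll1- and 95.1 and 91.3 CPM in the mCh Dll1+ libraries. Ptprc, which encodes the CD45 that the sort removed, held 2.88 to 4.39 CPM in the GFP libraries, 10.4 and 12.7 CPM in the mCh Dll1- and 6.39 and 5.32 CPM in the mCh Dll1+ libraries. The part of such cells in the values of Cd37, Cd53, Tspan32, Tspan18, Tspan11, Tspan9 and Tspan4 was not tested. Basal and myoepithelial markers moved the other way, and all 7 had a log2 fold change above 0 with both reporters. In Dll1+ cells 5 of 7 were called higher in the mCh mice and 1 of 7 in the GFP mice. With each reporter 5 had an unadjusted p under 0.05 by edgeR. Their sums rose from 159 to 378 and 126 to 211 CPM in GFP mice 1 and 2. In mCh mice 1 and 2 they rose from 328 to 1222 and 467 to 967 CPM. Of the 10 luminal markers, the combined test called 2 higher in Dll1+ cells (Kit and Aldh1a3) and 2 lower (Pgr and Prlr). In the GFP mice 1 was higher and 3 lower, and in the mCh mice 2 were higher and 1 lower. The part of basal and luminal cells in the values of Tspan8, Cd81, Tspan5, Tspan33 and Tspan1 was not tested either.

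**Figure D4:**
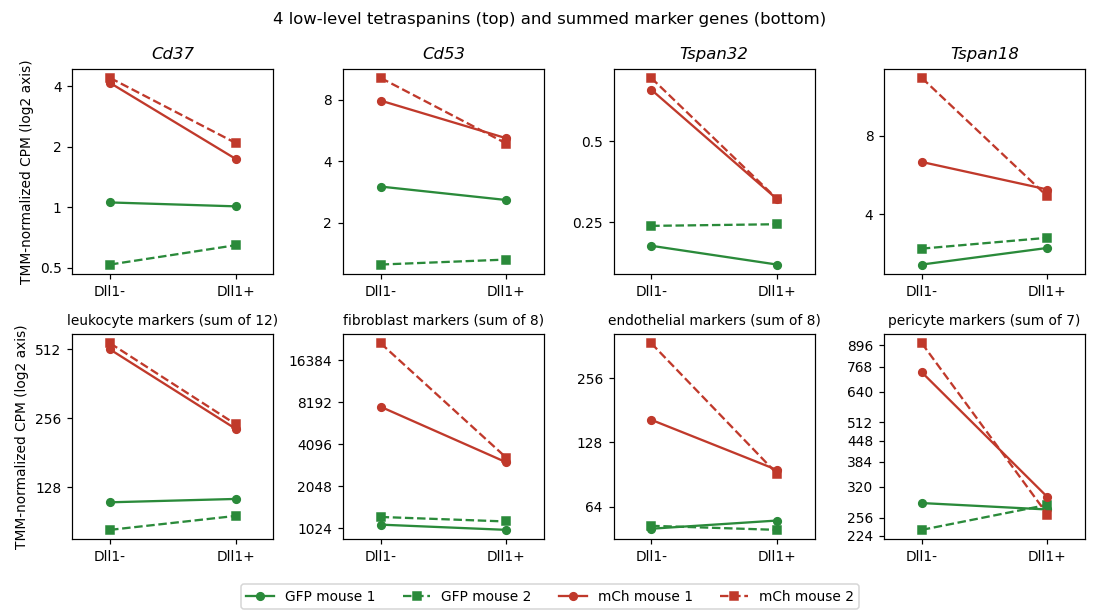
TMM-normalized CPM on log2 axes in the Dll1- and Dll1+ library of each mouse, for 4 tetraspanins of low level (top) and for the summed markers of 4 other cell types (bottom), with lines joining the libraries of a mouse (green GFP, red mCh). In both rows the mCh Dll1- libraries are highest: Cd37 stands there at 4.15 and 4.39 CPM and the leukocyte sum at 511 and 543 CPM.

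Comparing the tumors of the 2 reporters within each sort gate, without a block because each mouse carries 1 reporter, 12 members were higher and 0 lower by edgeR in mCh than in GFP Dll1- cells, with 14 of either direction at an unadjusted p under 0.05. DESeq2 called 2 lower, Tspan8 and Tspan2. Of all genes 18.7% were higher and 17.9% lower. The 12 were Tspan11, Tspan4, Cd37, Tspan7, Tspan18, Tspan9, Tspan32, Rom1, Cd63, Cd53, Tspan6 and Tspan31. The log2 fold change was largest for Tspan11, at 4.27 ± 0.51 (SE, n = 2 against 2; edgeR adjusted p = 0.00229), followed by Cd37 at 2.43 ± 0.40 (adjusted p = 0.00529) and Cd53 at 2.09 ± 0.47 (adjusted p = 0.0154). Tspan18 held 2.56 and 2.95 CPM in the GFP and 6.35 and 13.4 CPM in the mCh Dll1- libraries, and 2.96, 3.24, 4.97 and 4.68 CPM in the Dll1+ libraries in the same order. Tspan4 was 2.84-fold and Tspan9 1.92-fold higher in the mCh tumors. In the same libraries 11 of 11 leukocyte, 8 of 8 fibroblast, 8 of 8 endothelial and 5 of 7 pericyte markers were higher. Basal and myoepithelial markers were higher for 3 of 7 and lower for 1, and luminal markers higher for 0 of 10 and lower for 3.

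Some of these 12 were at higher levels. Tspan7, a tetraspanin studied mainly in neurons, held 52.2 and 51.4 CPM in the Dll1- and 54.3 and 63.8 CPM in the Dll1+ libraries of the GFP mice, and 94.1 and 76.7 CPM in the Dll1- and 85.7 and 87.3 CPM in the Dll1+ libraries of the mCh mice. The 4 mCh libraries lay above the 4 GFP libraries, a separation whose share over all genes was not counted. Tspan6 held 19.3 and 20.2 CPM in the Dll1- and 19.0 and 17.4 CPM in the Dll1+ libraries of the GFP mice, and 31.2 and 35.1 CPM in the Dll1- and 26.4 and 36.7 CPM in the Dll1+ libraries of the mCh mice, also without overlap. Tspan31 held 114 and 100.4 CPM in the Dll1- and 105 and 111 CPM in the Dll1+ libraries of the GFP mice, and 133 CPM in each of the Dll1- and 141 and 143 CPM in the Dll1+ libraries of the mCh mice. Cd63 was at 99.3 to 135 CPM in the GFP and 166 to 259 CPM in the mCh libraries.

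In Dll1+ cells 8 members were higher and 1 lower in mCh than in GFP tumors, where 15.2% of all genes were higher and 15.4% lower. Those higher were Tspan9, Tspan6, Tspan7, Tspan4, Tspan31, Rom1, Tspan33 and Cd63, with log2 fold changes from 0.40 (Tspan31) to 0.97 (Tspan4). Tspan8 was the one lower member. It averaged 147 ± 6.02 CPM in GFP and 55.5 ± 18.7 CPM in mCh Dll1+ cells (SD, n = 2 each), a log2 fold change of -1.41 ± 0.35 (SE; edgeR adjusted p = 0.0263). In Dll1- cells the averages were 28.3 ± 6.78 and 13.7 ± 5.87 CPM and the log2 fold change of -1.07 ± 0.36 was not called (adjusted p = 0.0553). Dll1 itself stood at 203 and 250 CPM in the mCh and 87.5 and 138 CPM in the GFP Dll1+ libraries (edgeR adjusted p = 0.0616). A relation between the levels of Dll1 and Tspan8 was not tested. In both gates the count of members called fell to 0 when either GFP mouse was left out, with 12 and 12 members in Dll1- cells and 8 and 7 in Dll1+ cells at an unadjusted p under 0.05. Those fits called 0 of all genes tested. Of the markers, 9 of 11 leukocyte, 6 of 8 fibroblast, 2 of 8 endothelial and 3 of 7 pericyte genes were higher in mCh Dll1+ cells, and 1 pericyte gene (Notch3) was lower. Of the basal and myoepithelial markers 4 of 7 were higher and 0 lower, and of the luminal markers 0 of 10 were higher and 3 lower. Their part in the values of Tspan8 and of the 8 higher members was not tested.

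**Figure D5:**
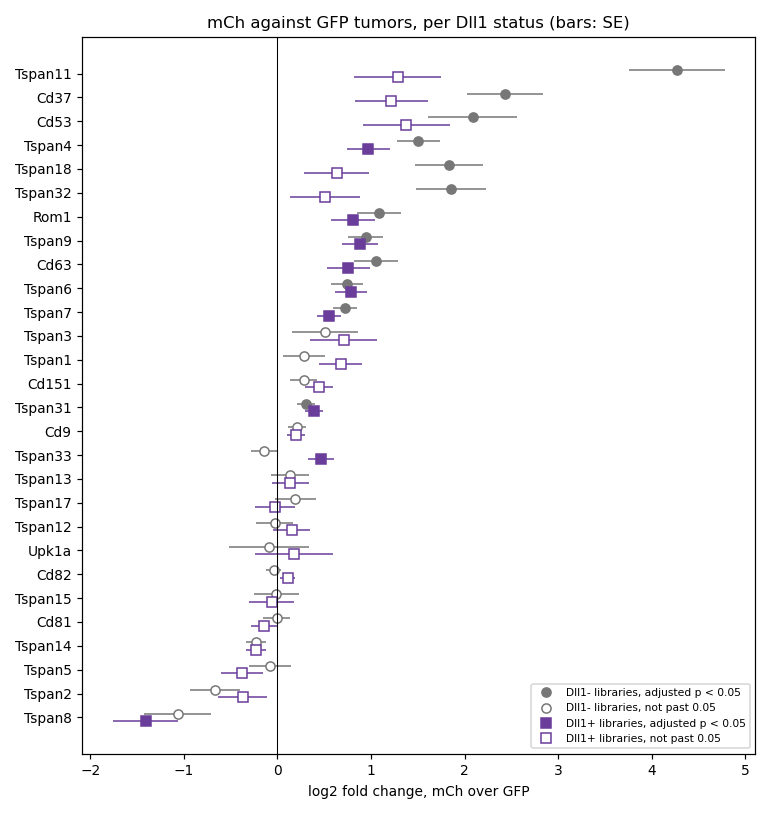
Log2 fold change of mCh over GFP tumors for the 28 tested tetraspanins, in Dll1- cells (grey circles) and Dll1+ cells (purple squares), with bars for the SE. Filled symbols passed an edgeR adjusted p of 0.05. Tspan11 leads in Dll1- cells at 4.27, and Tspan8 lies lowest in both gates, at -1.07 and -1.41.

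A list of 31 genes whose products associate with tetraspanins was read in the same fits. Of the 29 tested, the combined test called 6 higher in Dll1+ cells (Prkca, Kit, Met, Hbegf, Cldn1 and Itga3) and 3 lower (Upk2, Itga5 and Tgfa), where 6.98% of all genes were higher and 7.04% lower. Prkca, a kinase recruited to integrins by tetraspanins, held 41.8 to 103 CPM in the Dll1- and 89.0 to 194 CPM in the Dll1+ libraries, with a combined log2 fold change of 0.92 ± 0.06 (SE; edgeR adjusted p = 0.00534). Kit and Met, both receptor tyrosine kinases, had 0.81 ± 0.07 and 0.58 ± 0.06 (adjusted p = 0.00590 and 0.00651). Hbegf, a growth factor whose membrane form associates with Cd9, had 0.65 ± 0.07 (adjusted p = 0.00711), and Itga3, the integrin subunit bound by Cd151, 0.48 ± 0.07 (adjusted p = 0.0115). Upk2, the uroplakin that pairs with Upk1a in urothelium, held 2.41 to 3.72 CPM in the Dll1- and 1.07 to 1.47 CPM in the Dll1+ libraries. Igsf8 and Ptgfrn, the direct partners of Cd81 and Cd9, were not called over the 4 mice (log2 fold change -0.04 ± 0.07 and -0.60 ± 0.15), nor was Epcam (0.30 ± 0.08). Ptgfrn missed the threshold narrowly (edgeR adjusted p = 0.0514). It was called lower in the mCh mice (-0.83 ± 0.15, adjusted p = 0.0312) and not in the GFP mice (-0.36 ± 0.15, adjusted p = 0.216).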

How the data were processed

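RNA was measured in 8 libraries of sorted tumor cells from 4 mice, and the libraries of a mouse were paired by the mouse identity in the labels. Per the paper's methods, salmon was run by the authors against GENCODE mouse transcripts (GRCm38.p6) and tximport gave sums per gene. The deposited values are estimated counts per gene (expected counts, whole numbers, not normalized). The library kit was stranded, but the strand setting of the counting is not given in the sources used here. Estimated counts split reads between similar transcripts, which matters most for overlapping genes.

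Symbols and positions came from GENCODE annotation of GRCm38, in which 53668 of the 53697 gene identifiers matched, and promoters from RefSeq (GRCm38.p6). Levels are TMM-normalized CPM, with a prior count of 2 for log2 values. A gene of 3 counts stood at 0.0242 to 0.110 CPM, and such limits cover counting error only.

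Tests used edgeR 4.0.16 in R 4.3.3 (filterByExpr on Dll1 status, robust quasi-likelihood F test), with P values adjusted by the Benjamini-Hochberg method over 18322 genes and a threshold of 0.05. For the combined effect, Dll1 status and animal were the terms, as in the study's 2-factor model. The effect of each reporter came from a model of animal plus a Dll1 term for GFP and one for mCh, and the comparison of reporters from a model of the 4 groups. SE was derived from the F statistic. Since libraries of a mouse come from 1 animal, the mouse is a real pairing. Deviations of the paired libraries from their group means correlated at -0.05 in the GFP and 0.55 in the mCh mice (18322 genes). Alternatives were RLE size factors, DESeq2 1.42.0, dropping the filter, requiring 10 counts in all libraries, each mouse left out, no block, each reporter or gate fitted alone, and limma 3.58.1 voom with the mouse as a random block. The scripts were tested on simulated data that held no differences between mice. In the 6 comparisons 39 to 70 of the 100 genes changed 2-fold were recovered, and 2.63% to 6.83% of the calls were false.

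The members, the partner list and the marker lists were chosen with earlier results of these data known. Values in every library are given for members past the threshold in the combined fit or with either reporter, for those among the lowest p between reporters and for the most abundant. Tspan5, Tspan17, Cd82 and others outside that rule are named to account for the family.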

Additional observations from a re-analysis of the deposited data

How the results depend on the processing

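Over the 4 mice 5 members passed the edgeR test. Tspan8 and Tspan1 passed under every alternative run except the fit with no mouse block, and no log2 fold change of a called member changed sign. Without any block 0 members passed (5 at an unadjusted p under 0.05), and with the reporter as a term in place of the mouse, a choice made after seeing the data, 4 passed. Leaving out each mouse gave 2 to 4, with 2 without GFP mouse 1 or mCh mouse 1 and 3 without GFP mouse 2. In the GFP mice 3 passed, and 5 with DESeq2, without the filter or fitted alone, 2 without the block, and 0 to 5 with a mouse left out, 0 being without GFP mouse 2 (5 unadjusted). In the mCh mice 7 passed, and 11 without the filter, 0 without the block (10 unadjusted), 0 fitted alone (11 unadjusted), and 2 to 7 with a mouse left out. For the difference between reporters 0 passed, and 1 with DESeq2 (Tspan11), 1 without the filter (Tspan18), and 0 to 2 with a mouse left out (Tspan11 and Tspan18 without mCh mouse 1). Between reporters 12 members passed in Dll1- cells and 9 in Dll1+ cells, 0 to 13 and 0 to 12 with a mouse left out, and 11 in each gate with the mouse as a random block. With the 4 libraries of a gate fitted alone, 11 members passed in Dll1- cells and 6 in Dll1+ cells. A fit with a fixed mouse block could not be made between reporters, as each mouse has 1 reporter. Where a group kept 1 library, it was assumed to vary like the others. Over all genes tested, 0 passed in the combined fit with no block, in the mCh mice fitted alone, and between reporters without either GFP mouse, and 1 was higher and 1 lower in the GFP mice without GFP mouse 2. Fewer of all genes also passed with each reporter when a mouse of that reporter was left out, and in the mCh mice without either GFP mouse. The cause of these shifts was not tested, beyond the fewer samples. With 2 mice for each reporter, and levels near 1 CPM for Cd37, Tspan32 and Upk1a, small differences were not detectable.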

Other observations

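Among the partner genes, Mmp14 and Igsf3 were named after their values were seen. Mmp14, a membrane metalloprotease that tetraspanins hold at the surface, was at 70.0 and 65.1 CPM in the Dll1- and 108 and 106 CPM in the Dll1+ libraries of the GFP mice, and at 203 and 421 CPM in the Dll1- and 138 and 214 CPM in the Dll1+ libraries of the mCh mice. It was called higher in the GFP mice (log2 fold change 0.66 ± 0.12, SE; edgeR adjusted p = 0.0224) and lower in the mCh mice (-0.76 ± 0.11, adjusted p = 0.0158), and the difference missed the threshold (-1.42 ± 0.16, adjusted p = 0.0538). The fibroblast markers summed to 7613 and 21760 CPM in the mCh Dll1- and 3039 and 3281 CPM in the mCh Dll1+ libraries, against 995 to 1232 CPM in the GFP libraries. The part of such cells in the values of Mmp14 and of the partner Itga5 was not tested. Igsf3, an immunoglobulin-superfamily relative of the Cd9 and Cd81 partners, had -0.71 ± 0.07 in the GFP mice (adjusted p = 0.0050) and 0.04 ± 0.07 in the mCh mice, with a difference of 0.75 ± 0.10 (adjusted p = 0.0741).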
